A study of Mus musculus with 29 samples.

Results

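The 32 genes described here encode nuclear subunits of the last stages of oxidative phosphorylation in mouse tibialis anterior (TA) muscle: 9 of complex III, the electron carrier cytochrome c, 6 of complex IV and 16 of the ATP synthase with its inhibitor. They were taken from the 48023 genes of the deposited table by symbol, using the older Atp5 names of the GENCODE M21 annotation, and each symbol matched 1 Ensembl ID. They were picked by name and not by a cut on a measured value, but earlier results of these data were known when they were chosen. Of the 32 genes, 31 had enough counts for a test in every comparison. The exception was Uqcrc1 (ENSMUSG00000025651), a core subunit of complex III, which had 7 reads over all 29 libraries, and the cause was not tested.

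RNA was sequenced from 29 male mice on a C57BL/6J background, 2-3 months old by the series description and 3 months by a figure legend of the study. Cre under the HSA (human skeletal actin) promoter, active in muscle fibers, deleted floxed exon 1 of p110α (M-p110αKO) or floxed exon 2 of p110β (M-p110βKO), and controls carried the floxed alleles. The p110α line gave 4 controls and 4 M-p110αKO that were fed, and 4 controls and 3 M-p110αKO after 24 h without food. The p110β line gave 3 controls and 4 M-p110βKO in the fed state, and the same numbers after the fast. The study describes the p110β line as less purely C57BL/6, so that floxed gene and genetic background cannot be told apart between the lines. Mice are numbered 1 to 29 as in the labels, and values per library are given below in that order.

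Between 5351935 and 11653239 reads were assigned to genes in a library (median 7828636). Pik3ca and Pik3cb, the deleted genes, were counted over all their exons, which does not check the loss of 1 exon, and neither passed the test in its own knockout (adjusted p between 0.748 and 0.995). Muscle fiber markers were abundant in every library (summed level 50620-76820 CPM, read counts scaled to a common library size with TMM factors within each line). Control mouse 4 (fed, p110α line) stood apart for the genes described here: its median distance from its group was 0.45 in log2 CPM over the 31 tested genes, the largest of the 29 libraries, and 2 genes differed from the group by more than 1. In fasted control mice 23 and 24 of the p110β line the summed level of 7 adipocyte markers was 388 and 437 CPM, with 7 of 7 detected, against 86.3-210.0 CPM in the other libraries. Counts of called genes that changed without these mice are given with and without them. In bulk tissue, fewer cells of a type and less RNA per cell cannot be told apart.

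Complex III passes electrons from ubiquinol to cytochrome c, and complex IV passes them from cytochrome c to oxygen. Both pump protons across the inner mitochondrial membrane, and the ATP synthase lets the protons flow back through a ring of c subunits, whose rotation drives ATP synthesis in the F1 head. In muscle this chain supplies ATP for sustained contraction and takes up the electrons released from fatty acids and glucose.

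The ring subunit is the one part of these complexes that is encoded by 3 separate genes here. Atp5g1 lies on chromosome 11 at 96068852-96075670, Atp5g2 on chromosome 15 at 102662864-102672352 and Atp5g3 on chromosome 2 at 73908447-73911326, all on the minus strand of GRCm38. By the coding sequences of GENCODE M21 the proteins have 136, 146 and 141 residues. They end in the same 78 residues, which hold the mature c subunit, and have 58, 68 and 63 residues before this shared end. The 234 bases that encode the shared end are given 5′ to 3′, because a read must fall on differing bases to be assigned to 1 of the genes. Capitals mark positions at which the 3 genes are not all the same.
Atp5g1: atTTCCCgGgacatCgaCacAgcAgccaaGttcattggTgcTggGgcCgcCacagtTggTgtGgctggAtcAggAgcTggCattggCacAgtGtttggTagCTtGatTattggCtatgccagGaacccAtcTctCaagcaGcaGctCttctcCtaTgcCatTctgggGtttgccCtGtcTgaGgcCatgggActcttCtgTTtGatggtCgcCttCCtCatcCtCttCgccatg
Atp5g2: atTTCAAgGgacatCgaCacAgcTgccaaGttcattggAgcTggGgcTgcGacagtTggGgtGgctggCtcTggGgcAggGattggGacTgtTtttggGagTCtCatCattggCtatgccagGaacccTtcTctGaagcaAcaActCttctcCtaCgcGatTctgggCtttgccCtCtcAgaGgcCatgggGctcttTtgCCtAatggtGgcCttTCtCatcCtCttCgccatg
Atp5g3: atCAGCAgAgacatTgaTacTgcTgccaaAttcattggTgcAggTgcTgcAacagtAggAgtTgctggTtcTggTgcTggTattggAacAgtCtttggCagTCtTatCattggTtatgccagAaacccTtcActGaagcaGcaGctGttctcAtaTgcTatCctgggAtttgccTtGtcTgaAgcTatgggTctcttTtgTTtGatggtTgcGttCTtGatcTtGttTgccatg
All 3 genes had the same base at 171 of the 234 positions (73.1%), and the longest run shared by all 3 was 8 bases. The closest pair, Atp5g1 and Atp5g2, had 198 identical bases (84.6%) and a longest shared run of 20. No stretch of 50 bases in this region is therefore shared between any pair of them. Processed copies elsewhere in the genome are another matter: 38.3% of the 50-base stretches of Atp5g2 also occur in another annotated gene. Its near copies Gm10175 and Gm10231 held 27 counts over all libraries, against 8161 for Atp5g2.

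Per kilobase of exon, Atp5g3 held most of the summed level of the 3 c subunit genes in every group. Its share was 91.9% ± 1.68 (SD, n = 4) in fed controls of the p110α line, 93.7% ± 0.464 (n = 4) when p110α was deleted, 93.6% ± 0.885 (n = 4) in fasted controls and 92.3% ± 0.866 (n = 3) in fasted M-p110αKO. The p110β groups averaged 91.3-92.2%. Atp5g2 took 3.61-5.598% and Atp5g1 2.29-3.24% as group means. In fed control mouse 4 the share of Atp5g1 was 5.16%, against 2.39-2.76% in the other 3 mice of that group. Without division by length, as plain shares of counts, Atp5g1 took 5.99%, Atp5g2 3.66% and Atp5g3 90.3% as means over 29 libraries.

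Transcript levels of the other subunits also spanned a wide range, although the proteins assemble in fixed proportions. Values per kilobase in this paragraph are CPM divided by the summed exon length, as means ± SD over 29 libraries of both lines, which were scaled separately. Atp5b, the catalytic β subunit of the F1 head, was highest at 867 ± 89.1, followed by Atp5a1 (α subunit) at 637.5 ± 76.8 and Atp5c1 (γ subunit, the central stalk) at 497 ± 45.9. In the 7 fed controls Atp5b (798-897) did not overlap Atp5a1 (570-793). The lowest ATP synthase members were Atp5l (subunit g) at 2.81 ± 0.764 and Atpif1, the inhibitor that blocks ATP hydrolysis, at 3.56 ± 0.965, and their ranges over libraries overlapped. Exons of Atp5l in the annotation sum to 6443 bases, the longest of the 32 genes, which lowers its value per kilobase. Atpif1 shares 485 exon bases with Gm12999 on the other strand, which held 0 counts over all libraries. Reads there cannot be told apart unless strand was used in counting, which the sources do not state. Within complex III the highest was Cyc1, the heme-bearing cytochrome c1, at 328 ± 82.4, and the lowest tested was Uqcrq, a small accessory subunit, at 35.8 ± 11.8. Within complex IV the highest was Cox6b1, a subunit on the side of the intermembrane space, at 259 ± 86.6, and the lowest was Cox7b at 49.2 ± 15.5, with Cox5b close to it at 50.2 ± 11.5. Cycs, cytochrome c itself, stood at 13.1 ± 3.28.

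**Figure D1:**
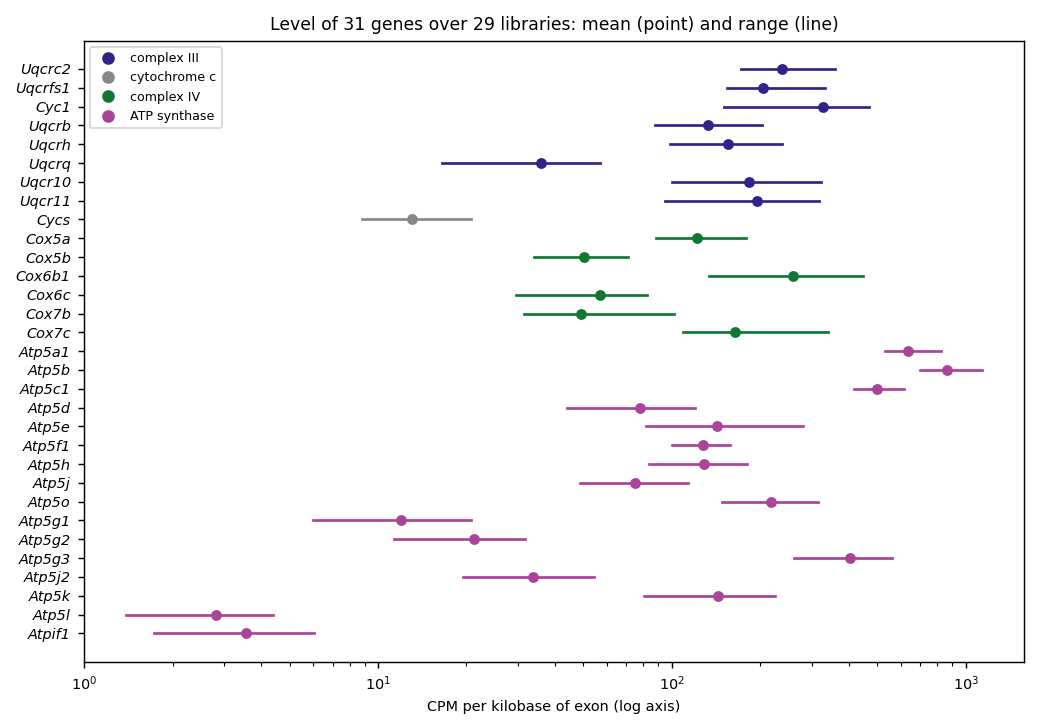
Level of the 31 tested genes in CPM per kilobase of exon on a log axis, with the mean (point) and range (line) over 29 libraries and 1 color per complex. Atp5b, Atp5a1 and Atp5c1 lie highest, and Atp5l and Atpif1 lie lowest.

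Fasting lowered most of the genes. With the 4 genotypes given equal weight, 23 of 31 fell and 1 rose under 24 h of fasting, as tested with edgeR's quasi-likelihood test over all 29 libraries. Adjusted p values come from the Benjamini-Hochberg procedure across every gene of a comparison, and a gene was called at an adjusted p under 0.05. Changes are log2 fold changes ± SE. Over all 12760 genes tested, 55.2% were called in this comparison and 28% were called lower. The median log2 fold change of the 31 genes was -0.38, against -0.02 for all genes tested. Atp5d (δ subunit of the central stalk) changed by -0.47 ± 0.07, adjusted p = 1.23e-06. Atp5h (subunit d of the peripheral stalk, which holds the F1 head still) changed by -0.45 ± 0.07, adjusted p = 2.53e-06. Cox5a, a nuclear subunit of complex IV, changed by -0.32 ± 0.05, adjusted p = 3.44e-06, Uqcrh, the hinge protein of complex III, by -0.43 ± 0.07, adjusted p = 3.54e-06, and Uqcr11, a small complex III subunit, by -0.50 ± 0.08, adjusted p = 3.96e-06. The largest fall was that of Atp5j2 (subunit f, in the membrane part), at -0.60 ± 0.09, adjusted p = 4.19e-06. Cycs changed by -0.52 ± 0.08, adjusted p = 6.06e-06, Atp5o (OSCP, at the top of the peripheral stalk) by -0.44 ± 0.08, adjusted p = 2.81e-05, Uqcr10 by -0.39 ± 0.08, adjusted p = 6.03e-05 and Cox5b by -0.38 ± 0.07, adjusted p = 7.88e-05. The 1 gene that rose was Uqcrc2, a core protein of complex III (0.28 ± 0.06, adjusted p = 4.95e-04). The 7 genes that were not called had log2 fold changes between -0.23 and 0.02.

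**Figure D2:**
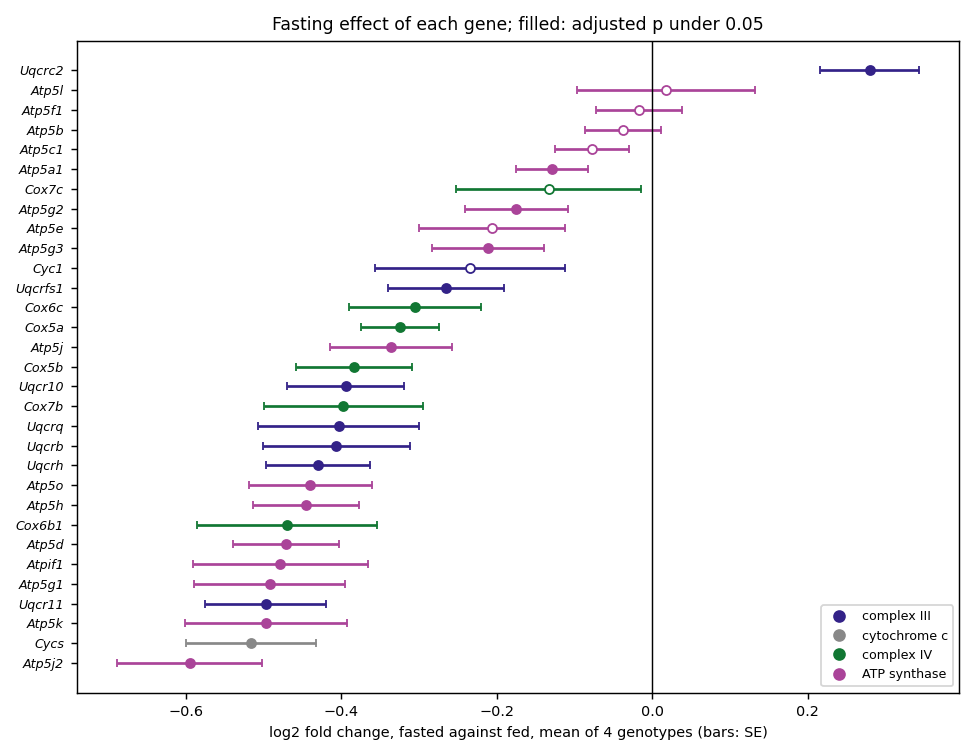
Fasting effect of the 31 tested genes as the mean log2 fold change of the 4 genotypes (points) with SE (bars), ordered by size, with filled points for an adjusted p under 0.05. Of the 24 filled points only Uqcrc2 lies to the right of 0.

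By complex, the falls covered 6 of the 8 tested complex III genes, Cycs, 5 of 6 complex IV genes and 11 of 16 ATP synthase genes. Those not called were Cyc1, Cox7c and, in the ATP synthase, Atp5b, Atp5c1, Atp5e, Atp5f1 and Atp5l. The summed CPM of complex IV averaged 948 ± 119 (SD, n = 4) in fed and 802 ± 115 (n = 4) in fasted controls of the p110α line, and 1129 ± 67.3 (n = 3) and 925 ± 58.4 (n = 3) in controls of the p110β line. For the ATP synthase the sums were 9607 ± 429 and 8435 ± 672 in the first line and 9706 ± 377 and 9080 ± 354 in the second. Complex III sums were 2134 ± 73.6 and 1867 ± 213, then 2351 ± 142 and 2151 ± 163. M-p110αKO went from 1170 ± 229 (n = 4) to 799.7 ± 108 (n = 3) for complex IV, from 11200 ± 1018 to 9593 ± 570.3 for the ATP synthase and from 2488 ± 298 to 2053 ± 113 for complex III. In M-p110βKO (n = 4 in each state) complex IV was 1036 ± 142 fed and 904 ± 86.5 fasted, and the ATP synthase 9588 ± 559 and 9459 ± 977. Complex III there was 2234 ± 135 and 2258 ± 308, with the fasted mean the higher one. Fed and fasted sums did not overlap for complex IV in p110β controls and M-p110αKO, nor for the ATP synthase in M-p110αKO. In all other pairs of fed and fasted groups these sums overlapped. The most abundant subunits weigh most in such sums, and in the ATP synthase these were Atp5b (-0.04 ± 0.05, not called) and Atp5a1 (-0.13 ± 0.05, called). When each library was corrected for GC content of the longest transcript and for summed exon length, 19 were called lower and 2 higher. The median was then -0.26. In that fit Atp5g2 changed direction, from -0.17 ± 0.07 to 0.14 (adjusted p = 0.0369). The share of all genes called is not given for this fit or for the next one, so these counts have no background. Without fasted control mice 23 and 24 of the p110β line 20 were called lower and 1 higher, and without fed control mouse 4 there were 25 lower and 1 higher.

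Each fasting effect was also tested within its own line, and comparisons within a line share groups of mice. Fasting was compared with feeding in 4 genotypes, and 20 of the 31 genes had a log2 fold change below 0 in each of them. Atp5j2 was called lower in 4 of 4, 4 genes in 3, 9 in 2, 9 in 1 and 8 in 0. The matching counts over all genes are not given here, so this recurrence has no background to set it against. In the paragraphs that follow, a gene said to fall or rise in a genotype is one called there. In controls of the p110α line 14 of 31 were called, all lower, against 30.1% of all 12433 genes called and 14.7% called lower, with a median of -0.34. In M-p110αKO 12 were called, all lower, against 21.5% called and 9.91% called lower, with a median of -0.41. In controls of the p110β line 8 were called, all lower, against 26.9% of 12249 genes called and 12.4% called lower, with a median of -0.29. In M-p110βKO 9 were called lower and 2 higher, against 37.9% called and 18.9% called lower, with a median of -0.16. Medians of all genes lay between -0.02 and 0.00 in these comparisons.

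**Figure D3:**
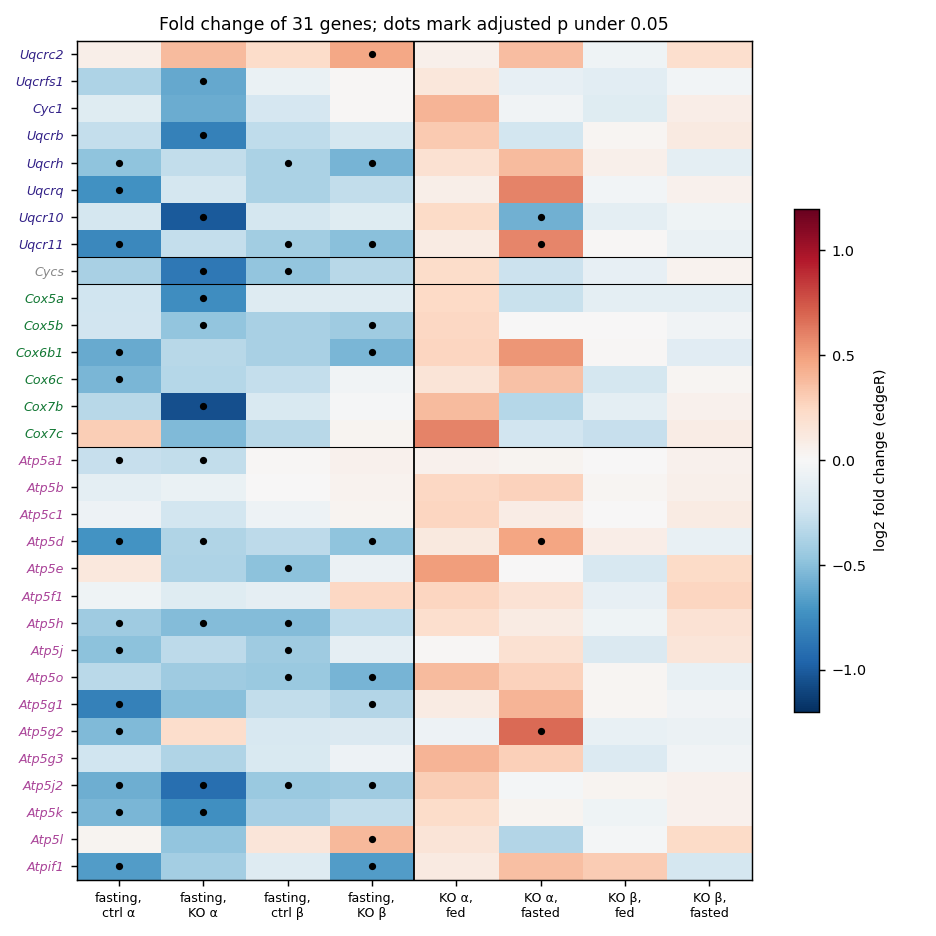
Log2 fold change of the 31 tested genes (rows, colored by complex) in 8 comparisons (columns): fasting in each genotype, and knockout against controls in each state. Blue is lower, red is higher, and dots mark an adjusted p under 0.05; the 4 fasting columns are mostly blue, and the M-p110βKO columns hold no dot.

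In complex III, Uqcr11 was called lower in 3 of 4 genotypes, with log2 fold changes below 0 in all 4. Its CPM was 110.2, 104, 90.4 and 139 in fed and 66.3, 61.3, 72.5 and 60.6 in fasted controls of the p110α line, with no overlap (-0.77 ± 0.15, adjusted p = 0.00117). Controls of the p110β line had 171, 163 and 196 when fed and 133, 128 and 136 when fasted, again with no overlap (-0.42 ± 0.14, adjusted p = 0.0387). Fed M-p110βKO stood at 170.4, 145, 196 and 203 and fasted M-p110βKO at 102, 121, 154 and 127, which overlap at mice 20 and 28 (-0.50 ± 0.12, adjusted p = 0.00392). Uqcrh was called lower in the same 3 genotypes and was also below 0 in all 4. Its CPM was 164, 178, 166 and 237 in fed and 128, 125, 122 and 156 in fasted controls of the p110α line (-0.49 ± 0.13, adjusted p = 0.00882). In the p110β controls it was 207, 239.5 and 262 fed and 189.8, 185 and 169.7 fasted (-0.38 ± 0.13, adjusted p = 0.042), and in M-p110βKO 229.9, 196, 264 and 294 fed and 169, 162, 179 and 161 fasted (-0.55 ± 0.12, adjusted p = 0.00106). All 3 pairs of groups were fully separated. Uqcrq fell in p110α controls, from 42.9, 54.1, 43.7 and 88.8 to 36.3, 30.3, 35.6 and 37.1 CPM (-0.73 ± 0.22, adjusted p = 0.0164), where fed mouse 4 was the highest. Without mouse 4 the change was -0.43 (adjusted p = 0.0873).

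Other complex III genes fell in M-p110αKO. Uqcr10 stood at 133, 188, 99.2 and 127 CPM in fed and 58.5, 82.03 and 63.3 in fasted M-p110αKO, with no overlap (-1.01 ± 0.17, adjusted p = 5.17e-04). In p110α controls it was 114, 130.3, 110.2 and 113 fed and 95.9, 93.3, 104 and 111 fasted, which overlap at mice 3 and 12, and it was not called (-0.21 ± 0.15, adjusted p = 0.32). Uqcrb was 101, 177, 147 and 172 CPM in M-p110αKO with food and 76.9, 92.6 and 85.5 without (-0.82 ± 0.21, adjusted p = 0.00995). The Rieske iron-sulfur protein Uqcrfs1, which takes the electron from ubiquinol, was 288, 425, 366 and 351 in fed and 228, 228 and 244 in fasted M-p110αKO (-0.62 ± 0.17, adjusted p = 0.0151). Both pairs were fully separated. Uqcrc2 went the other way in M-p110βKO, from 438, 562, 479 and 486 CPM fed to 634, 778, 709 and 596 fasted (0.47 ± 0.11, adjusted p = 0.00279), and every fasted mouse lay above every fed one. In the other 3 genotypes Uqcrc2 had log2 fold changes of 0.07 ± 0.13, 0.38 ± 0.14 and 0.22 ± 0.13, none of them called.

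Cycs was called lower with fasting in M-p110αKO and in p110β controls, with log2 fold changes below 0 in all 4 genotypes. Its CPM was 48.8, 66.5, 54.98 and 70.8 in fed and 30.1, 30.5 and 39.4 in fasted M-p110αKO (-0.86 ± 0.17, adjusted p = 0.00152), with no overlap. It was 36.4, 53.6 and 58.04 in fed and 35.3, 39.03 and 31.9 in fasted p110β controls (-0.48 ± 0.17, adjusted p = 0.0462), which overlap at mice 16 and 24. Of its 50-base stretches 26.1% also occur in other genes, and its near copy Gm10053 held 69 counts over all libraries against 10676 for Cycs.

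In complex IV the sets of called genes varied with the genotype. Cox5a was 314, 374, 369 and 376 CPM in fed and 202, 217 and 222 in fasted M-p110αKO, fully separated and with the lowest adjusted p of the 31 genes in that comparison (-0.74 ± 0.11, adjusted p = 1.58e-04). Fed controls of that line stood at 286, 282, 339 and 309.6 and fasted controls at 244, 226, 286 and 273, which overlap at mice 2 and 11 (-0.24 ± 0.10, adjusted p = 0.0729). Cox7b was 63.8, 124, 82.7 and 85.7 in fed and 37.97, 45.7 and 44.99 in fasted M-p110αKO (-1.05 ± 0.24, adjusted p = 0.00521). Cox5b was 78.6, 107, 71.5 and 84.3 and 56.2, 74.3 and 53.8 in these groups, with overlap at mice 7 and 14 (-0.47 ± 0.15, adjusted p = 0.034). It also fell in M-p110βKO, from 108, 75.4, 113 and 112 to 70.2, 69.6, 92.7 and 70.8 CPM (-0.43 ± 0.13, adjusted p = 0.0152), where fed mouse 20 was low and fasted mouse 28 was high. Cox6b1 fell in M-p110βKO, from 283, 178, 293 and 259 to 174, 137, 218 and 165 CPM, with overlap at mice 20 and 28 (-0.55 ± 0.17, adjusted p = 0.0193). In p110α controls Cox6b1 (-0.60 ± 0.22, adjusted p = 0.0498) and Cox6c (-0.55 ± 0.18, adjusted p = 0.0323) were called lower.

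**Figure D4:**
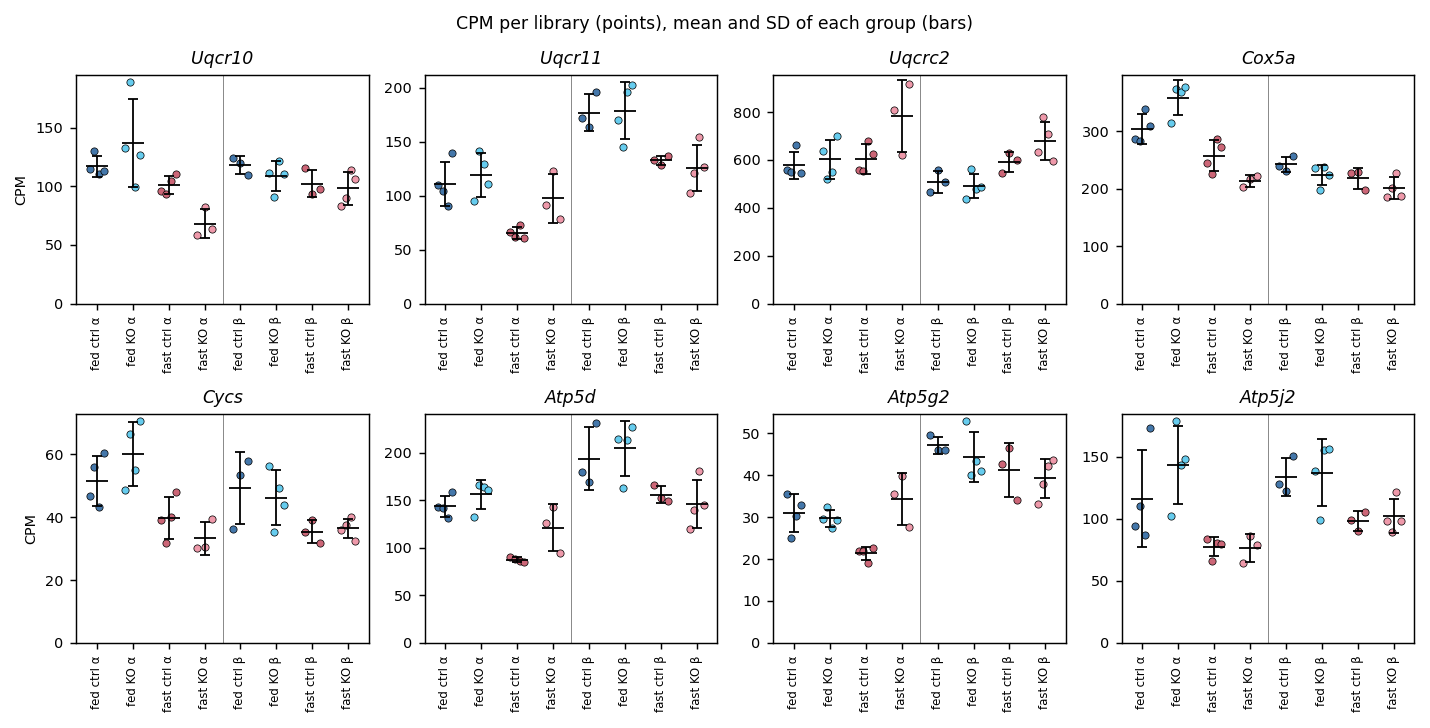
CPM per library of 8 genes in the 8 groups (points) and group means with their SD (bars), where α and β name the line, ctrl the controls and KO the knockout. Uqcr11, Atp5d and Atp5g2 are low in fasted controls of the p110α line, and Uqcr10 is lowest in fasted M-p110αKO.

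Within the F1 head and central stalk, Atp5d was called lower in 3 of 4 genotypes and was below 0 in all 4. Its CPM was 143, 142, 132 and 158 in fed and 90.6, 88.3, 86.1 and 84.8 in fasted controls of the p110α line, the lowest adjusted p of the 31 genes in that comparison (-0.72 ± 0.12, adjusted p = 1.85e-04). In M-p110αKO it was 133, 166, 164 and 161 fed and 127, 143 and 94.3 fasted (-0.36 ± 0.12, adjusted p = 0.0447). In M-p110βKO it was 215, 162, 214 and 228 fed and 119.8, 139.9, 180.5 and 145 fasted (-0.48 ± 0.13, adjusted p = 0.00815). Only the controls of the p110α line were fully separated among these 3. In p110β controls, where Atp5d was not called, fed (169.5-231 CPM) and fasted mice (149-166 CPM) did not overlap either. With the GC and length correction the change in M-p110βKO was -0.16 (adjusted p = 0.27), whereas in the other 2 genotypes Atp5d was still called, at -0.39 and -0.32. Atp5e (ε subunit) was 191, 234 and 185 CPM in fed and 143, 146 and 144 in fasted p110β controls, with no overlap (-0.50 ± 0.13, adjusted p = 0.00949). Atp5a1 was 2122, 2232, 2312 and 2487 in fed and 1916, 1744, 1981 and 1914 in fasted p110α controls (-0.28 ± 0.09, adjusted p = 0.0255), and 2266, 2279, 2345 and 2577 and 1828, 1994 and 1962 in M-p110αKO (-0.30 ± 0.10, adjusted p = 0.0368). These falls were small and without overlap.

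Peripheral stalk genes fell in controls of both lines. Atp5h CPM was 195, 210, 174 and 170.2 in fed and 138, 144, 122 and 154 in fasted controls of the p110α line (-0.42 ± 0.11, adjusted p = 0.00894). It was 208, 227, 210.3 and 216 and 142, 181 and 126 in M-p110αKO (-0.52 ± 0.12, adjusted p = 0.00578), and 219.5, 221 and 260.5 and 166, 172 and 150.1 in p110β controls (-0.52 ± 0.16, adjusted p = 0.0176). Fed and fasted mice did not overlap in any of the 3. Atp5j (factor 6) was 252, 284 and 309 fed and 176, 246 and 207 fasted in p110β controls (-0.42 ± 0.14, adjusted p = 0.0287). Atp5o was 505, 477 and 609 and 374, 400.2 and 395 in those groups (-0.44 ± 0.16, adjusted p = 0.0413), and 612, 432, 600.3 and 508 and 359.6, 315, 463 and 323 in M-p110βKO, with overlap at mice 20 and 28 (-0.56 ± 0.14, adjusted p = 0.00335). Atp5o held the largest share of 50-base stretches found in other genes (41.6%), with 2 counts in its near copies over all libraries. Atp5j lies across from Gabpa on the other strand, with 397 shared exon bases, and reads of such partners cannot be told apart unless strand was used in counting, which the sources do not state.

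Among the c subunit genes Atp5g2 and Atp5g1 fell in p110α controls. Atp5g2 stood at 35.6, 24.9, 30.2 and 32.9 CPM in fed and 21.9, 21.9, 19 and 22.6 in fasted mice, with no overlap (-0.53 ± 0.13, adjusted p = 0.00475). With the GC and length correction this change was -0.08 (adjusted p = 0.6). Atp5g1 stood at 47.3, 52.9, 44.9 and 102 and 36.2, 29.5, 38.5 and 37.9, with fed mouse 4 far above its group (-0.81 ± 0.21, adjusted p = 0.00806; -0.44 without mouse 4, adjusted p = 0.0279). In M-p110βKO Atp5g1 was 75.9, 62.9, 77.7 and 74.5 fed and 49.5, 48.7, 72.7 and 56.3 fasted, with overlap at mice 20 and 28 (-0.36 ± 0.12, adjusted p = 0.0254). Atp5g3, the abundant one, was not called in any single genotype, with log2 fold changes of -0.24 ± 0.14, -0.36 ± 0.15, -0.18 ± 0.14 and -0.06 ± 0.12.

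Of the membrane accessory subunits, Atp5j2 was called in all 4 genotypes. Its CPM was 94.4, 110.3, 86.9 and 173 in fed and 83.4, 66.4, 80.3 and 80.03 in fasted controls of the p110α line (-0.59 ± 0.19, adjusted p = 0.0266), and 103, 179, 143 and 148 and 64.3, 86.2 and 78.6 in M-p110αKO (-0.91 ± 0.21, adjusted p = 0.00534). Fed and fasted mice were separated in both. In p110β controls it was 128, 122 and 151 and 98.95, 89.97 and 106 (-0.45 ± 0.15, adjusted p = 0.0396), and in M-p110βKO 139, 98.9, 155 and 156 and 98.6, 89.3, 121 and 98.4, with overlap at mice 20 and 28 (-0.43 ± 0.13, adjusted p = 0.0174). Atp5k (subunit e) was 73.3, 139, 89.7 and 102 fed and 51.4, 71.6 and 58.7 fasted in M-p110αKO (-0.74 ± 0.22, adjusted p = 0.0257). Atp5l rose in M-p110βKO, from 16.4, 17.6, 18.7 and 22.8 to 23.4, 22.1, 28.2 and 25.2 CPM, with overlap at mice 22 and 27 (0.39 ± 0.14, adjusted p = 0.0306). Atpif1, at few counts, was 4.94, 5.18, 4.62 and 6.796 fed and 4.48, 2.92, 2.49 and 3.74 fasted in p110α controls (-0.67 ± 0.21, adjusted p = 0.0209) and 5.93, 6.49, 6.498 and 8.75 and 3.37, 3.21, 6.02 and 4.78 in M-p110βKO, with overlap at mice 19 and 28 (-0.67 ± 0.22, adjusted p = 0.0223).

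Several of these counts rested on single libraries. With 1 library left out, 3033 to 3861 of all genes were called in p110α controls, against 3739 with every library. In p110β controls it was 2452 to 3508 against 3297, and in M-p110βKO 3851 to 4879 against 4643. In p110α controls 14 calls became 6 without fed mouse 4, 9 without fasted mouse 9 and 6 without fasted mouse 10. The 6 left without mouse 4 were Atp5d (-0.66), Uqcr11 (-0.64), Atp5g2 (-0.50), Atp5g1 (-0.44), Atp5h (-0.46) and Uqcrh (-0.34). The 8 lost were Uqcrq (-0.43), Cox6b1 (-0.40), Cox6c (-0.31), Atp5a1 (-0.23), Atp5j (-0.28), Atp5j2 (-0.32), Atp5k (-0.35) and Atpif1 (-0.52), with adjusted p between 0.0758 and 0.196. In p110β controls 8 calls became 5, 4 and 1 without fed mice 16, 17 and 18, 2, 3 and 3 without fasted mice 23, 24 and 25, and 5 without fasted M-p110βKO mouse 26. Without mice 23 and 24 together, which leaves 1 fasted control that is assumed to vary like the other groups, 0 of 31 genes were called in p110β controls, and the log2 fold changes of the 8 genes were between -0.64 and -0.34 (adjusted p between 0.0739 and 0.348). In M-p110βKO 11 calls became 6 without fed mouse 21 and 7 without fasted mouse 26. The GC and length correction also changed which genes were called, and those gained here and below were picked out after their values were seen. Shares of all genes called with this correction are not given here or below, so these counts have no background. In p110α controls it left 11 calls, all lower: 9 of the 14, with Cox5a and Cycs gained and Atp5g2, Atp5a1, Atp5k, Atpif1 and Cox6b1 lost. In M-p110αKO there were 11 lower and 2 higher, with Cox5b lost and Atp5g2 (0.33, adjusted p = 0.0457) and Uqcrc2 (0.49, adjusted p = 0.0164) gained as higher. In p110β controls 4 of the 8 were left, and Uqcr11 (-0.17, adjusted p = 0.33), Uqcrh (-0.22), Atp5o (-0.34) and Cycs (-0.39) were lost. In M-p110βKO there were 6 lower and 1 higher, with Cycs gained as lower and Atp5d, Atp5l, Atpif1, Cox6b1 and Uqcr11 (-0.21, adjusted p = 0.13) lost.

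Markers of fibers and of other cell types moved with fasting as well. Given here are summed CPM, without TMM factors, for lists without overlap between fed and fasted mice on that scale. In p110α controls muscle fiber markers (6 genes) were 64490-73600 fed and 50620-57000 fasted, and those of type IIa and IIx fibers (2 genes) 3483-6311 and 6319-8558. Macrophage markers (8 genes, each detected in every fasted mouse) were 17.9-25.4 and 40.3-76.6 there, adipocyte markers (7 genes) 86.3-122 and 155-177 and satellite cell markers (5 genes) 24.1-29.8 and 30.8-45.3. In M-p110αKO adipocyte markers were 116.5-138 fed and 148-210.0 fasted, and Schwann cell markers (5 genes) 71.7-89.2 and 37.8-64.8. In p110β controls muscle fiber markers were 70700-75080 and 55720-64390, adipocyte markers 120-145 and 173-437 and fibroblast markers (8 genes) 369-477 and 318-340. Slow fiber markers (8 genes) were 130-140 and 146-314 there, and erythroid markers (5 genes) 23.1-27.9 and 29.9-36. In M-p110βKO muscle fiber markers were 75000-76820 and 60810-65930, fibroblast markers 375-579 and 152-239, endothelial markers (6 genes) 425-479 and 242-383.5 and macrophage markers 33.9-60.7 and 21.1-25, with 5 of 5 tested macrophage genes called lower. Up to 5 of the 7 adipocyte, 2 of the 8 macrophage and 1 of the other listed genes were at 0 in a single library. Their part in these results was not tested.

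The fasting response was next compared between genotypes. The interaction of p110α deletion and fasting called 0 of 31 genes in edgeR, against 0.483% of all genes. At an unadjusted p under 0.05 there were 7 of 31, against 925 higher and 934 lower of all 12433 genes. DESeq2 called Atp5g2 higher and Cox5a and Uqcr10 lower in that comparison, limma-voom called 0, and edgeR without the filter on low counts called Atp5g2 higher and Cox7b, Cox7c and Uqcr10 lower. The lowest adjusted p values were those of Atp5g2 (0.74 ± 0.19, adjusted p = 0.0834) and Uqcr10 (-0.80 ± 0.23, adjusted p = 0.12). The interaction of p110β deletion and fasting also called 0 in edgeR, DESeq2 and limma-voom, against 0.106% of all genes. At an unadjusted p under 0.05 there were 2 of 31, against 753 higher and 810 lower of all 12249 genes. The lowest p values were those of Atp5e (0.42 ± 0.17, adjusted p = 0.33) and Atp5f1 (0.36 ± 0.15, adjusted p = 0.34). Fasting in controls differed between the lines for 0 genes with the 3 tools, against 1.56% of all genes. At an unadjusted p under 0.05 there was 1 of 31, against 1111 higher and 1100 lower of all 12760 genes. The lowest p there was that of Atp5e (-0.64 ± 0.27, adjusted p = 0.22, p110β minus p110α), and Cox7c differed by a like amount with a wider error (-0.64 ± 0.34, adjusted p = 0.33). In edgeR with the filter, fasting effects called in one genotype and not in another were thus not shown to differ.

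Deletion of p110α in fed mice moved no gene past the threshold, although 30 of 31 log2 fold changes were above 0. Their median was 0.22, against 0.00 for all genes, and edgeR called 0 of 31 against 0.611% of 12433 genes. At an unadjusted p under 0.05 there were 8 of 31, all higher, against 643 higher and 812 lower of all 12433 genes. DESeq2 and limma-voom called 0, while edgeR without the filter called Cox7c, Atp5e and Cyc1 higher. The lowest adjusted p was that of Atp5g3, with 694, 827, 775 and 788 CPM among controls against 863, 1221, 863 and 1131 among M-p110αKO (0.40 ± 0.14, adjusted p = 0.25). Every M-p110αKO mouse lay above every control. Atp5c1 was 898, 877, 969 and 891 in controls and 978, 1072, 1103 and 1181 in M-p110αKO (0.25 ± 0.09, adjusted p = 0.26), also without overlap. Without control mouse 4 the median was 0.31. Markers of type IIb fibers (4 genes, all detected) spanned 84770-105300 CPM among the controls and 61080-83490 among M-p110αKO, with no overlap, and their part in the shift was not tested. Summed CPM of the ATP synthase was 9607 ± 429 (SD, n = 4) in controls and 11200 ± 1018 (n = 4) in M-p110αKO, and that of complex IV was 948 ± 119 and 1170 ± 229.

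**Figure D5:**
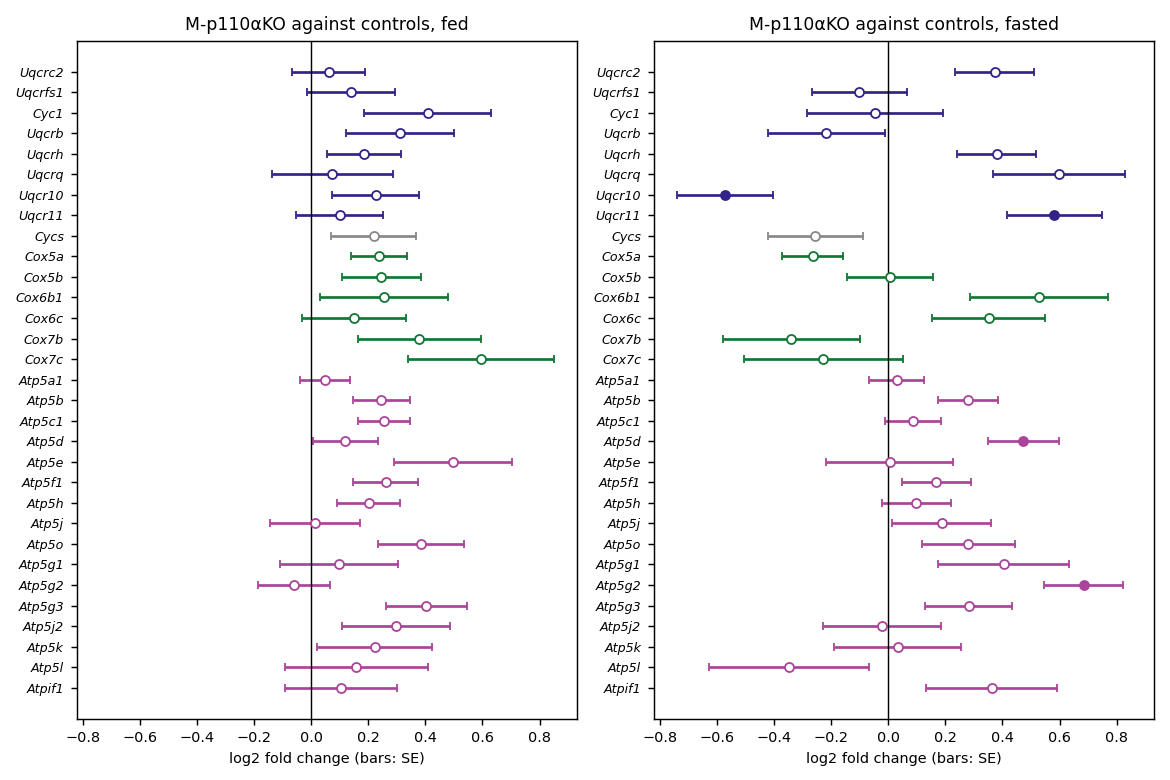
Log2 fold change of the 31 tested genes between M-p110αKO and controls in fed mice (left) and fasted mice (right), with SE (bars), in navy for complex III, gray for cytochrome c, green for complex IV and purple for the ATP synthase, and filled points for an adjusted p under 0.05. In fed mice 30 of 31 points lie to the right of 0 and none is filled, and in fasted mice 21 lie to the right and 4 are filled.

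Deletion of p110α in fasted mice raised 3 of 31 genes and lowered 1, against 6.52% of all genes called, with a median of 0.10. Fiber markers moved with this comparison: summed muscle fiber markers (6 genes) were 50620-57000 CPM in controls and 63320-63790 in M-p110αKO, type IIa and IIx markers (2 genes) 6319-8558 and 8719-9882 and slow fiber markers (8 genes) 99-135 and 136-138, and their part in the result was not tested. Atp5g2 was 21.9, 21.9, 19 and 22.6 CPM among controls against 35.5, 39.8 and 27.6 among M-p110αKO (0.68 ± 0.14, adjusted p = 0.00917). Atp5d was 90.6, 88.3, 86.1 and 84.8 in controls and 127, 143 and 94.3 in M-p110αKO (0.47 ± 0.12, adjusted p = 0.0303), and Uqcr11 was 66.3, 61.3, 72.5 and 60.6 and 91.2, 123 and 78.3 (0.58 ± 0.17, adjusted p = 0.0437). In each of these the 3 M-p110αKO mice lay above the 4 controls. Uqcr10 moved the other way, with 95.9, 93.3, 104 and 111 CPM in controls and 58.5, 82.03 and 63.3 in M-p110αKO (-0.57 ± 0.17, adjusted p = 0.04999), and again no overlap. Averaged over fed and fasted mice, M-p110αKO raised 2 genes, Atp5b (0.26 ± 0.07, adjusted p = 0.0421) and Atp5d (0.30 ± 0.08, adjusted p = 0.0476), against 5.49% of all genes called, with a median of 0.18. Fed mice had Atp5b at 3381, 3800, 3539 and 3513 CPM among controls and 3713, 4228, 4143 and 4800 among M-p110αKO. Fasted mice had 3238, 2964, 3406 and 3552 among controls and 3780, 4123 and 4071 among M-p110αKO. The fed groups overlap at mice 2 and 5, and the fasted groups do not overlap.

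The genes raised in fasted M-p110αKO share a high GC content. In the longest transcript of each gene it is 63.4% in Atp5g2, 59.8% in Uqcr11 and 59.3% in Atp5d, and 53.7% in Uqcr10. The first 3, with Cyc1 (61.4%), are the highest of the 32 genes. With the correction for GC content and length, the values were 0.38 for Atp5g2 (adjusted p = 0.0846), 0.19 for Atp5d (adjusted p = 0.27) and 0.28 for Uqcr11 (adjusted p = 0.24), so that none of the 3 was called, whereas Uqcr10 was -0.78 (adjusted p = 0.00599). In this fit Atp5f1 was called higher (0.45, adjusted p = 0.0227) and Uqcr10 lower. In the average both calls were lost with the correction, Atp5b at 0.21 (adjusted p = 0.099) and Atp5d at 0.16 (adjusted p = 0.16), and Atp5f1 was called higher (0.35, adjusted p = 0.00827) and Uqcr10 lower (-0.35, adjusted p = 0.0377). The 4 calls became 0 to 5 when 1 library was left out, with 0 without M-p110αKO mouse 14, 1 without control mouse 9, 10, 11 or 12 or M-p110αKO mouse 13, and 2 without fed mouse 1 or 2. Over all genes 218 to 1038 were called in these fits, against 811 with every library. Of the 2 calls of the average, 0 were left without mouse 1, 3, 6, 8, 9, 10, 11 or 14, 1 without mouse 2, 7 or 13, and there were 6 without mouse 4. For the average, 376 to 805 of all genes were called with 1 library left out, against 682 with every library.

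Deletion of p110β called none of the 31 genes in any state. Schwann cell markers (5 genes) did not overlap between controls and M-p110βKO, at 94.3-134 and 52.8-64.5 CPM fed and 133-160.5 and 41-115 fasted, nor did fibroblast (318-340 and 152-239) and macrophage markers (29.6-37 and 21.1-25) in fasted mice. In fed mice edgeR, DESeq2 and limma-voom called 0, where edgeR called 0 (0%) of 12249 genes. An unadjusted p under 0.05 was found for 0 of 31, against 517 higher and 543 lower of all genes. The median was -0.05. The lowest p was that of Cox6c (-0.22 ± 0.12, adjusted p = 0.63), at 257, 274 and 294 CPM in controls and 249, 198, 253 and 249 in M-p110βKO, with no overlap. Cox7c followed (-0.28 ± 0.15, adjusted p = 0.63), at 188, 246 and 169.9 and 182, 148, 210.1 and 123. In fasted mice the 3 tools called 0, against 0.89% of all genes in edgeR, with a median of 0.05. Of the 31 genes 1 had an unadjusted p under 0.05, against 754 higher and 865 lower of all 12249 genes. That gene, Atp5f1 (subunit b of the peripheral stalk), was 449, 495 and 489.5 CPM in controls and 588, 560.1, 620.4 and 512 in M-p110βKO (0.26 ± 0.11, adjusted p = 0.31), without overlap. Atp5e was 143, 146 and 144 in controls and 159, 152, 177 and 191 in M-p110βKO, also without overlap (0.23 ± 0.12, adjusted p = 0.43). Averaged over both states 0 were called by the 3 tools, against 0.335% of all genes, with log2 fold changes between -0.12 and 0.10. At an unadjusted p under 0.05 there were 0 of 31, against 616 higher and 686 lower of all genes. Cox5a (-0.12 ± 0.07, adjusted p = 0.66) and Atp5g3 (-0.10 ± 0.09, adjusted p = 0.8) had the lowest p values. Without fasted control mice 23 and 24 the count was 0 in each of these comparisons.

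The effect of deletion was then compared between the lines. In fasted mice it differed for Atp5g2 (0.75 ± 0.19, adjusted p = 0.0237, p110α minus p110β), which was 42.8, 46.6 and 34.03 CPM in fasted p110β controls and 33.2, 37.9, 42.2 and 43.5 in fasted M-p110βKO. This was 1 of 31 genes, against 4.88% of all genes, and Uqcr11 came next (0.65 ± 0.22, adjusted p = 0.0852). With the GC and length correction the Atp5g2 difference was 0.37 (adjusted p = 0.23), where Uqcr10 alone was called (-0.70, adjusted p = 0.0304), and without mice 23 and 24 it was 0.48 (adjusted p = 0.42). The count was 0 without mouse 13, 14, 23, 24 or 26 and 3 without mouse 15 or 28. Over all genes it was 178 to 956 with 1 library left out, against 623 with every library. In fed mice the deletion effect differed for 0 of 31 genes with the 3 tools, against 0.133% of all genes. At an unadjusted p under 0.05 there were 5 of 31, against 693 higher and 702 lower of all 12760 genes. The lowest p was that of Atp5g3 (0.58 ± 0.20, adjusted p = 0.27). Without the filter Atp5e and Cox7c were called higher there.

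Fed controls differed between the lines before any deletion or fast. In the p110β line 7 of 31 genes were higher and 2 lower than in the p110α line, against 20.3% of all genes called, with a median of 0.19. Endothelial markers (6 genes, all detected) moved with this comparison, at 242-307 CPM in the p110α line and 362-517 in the p110β line with 5 of 6 called higher, as did macrophage (17.9-25.4 and 26-44.6) and Schwann cell markers (61.1-78.7 and 94.3-134), and their part was not tested. Atp5g2 was 35.6, 24.9, 30.2 and 32.9 CPM in the p110α line and 49.5, 46 and 45.9 in the p110β line (0.59 ± 0.13, adjusted p = 0.00261), and Uqcr11 110.2, 104, 90.4 and 139 and 171, 163 and 196 (0.66 ± 0.16, adjusted p = 0.00399). Both were fully separated. Cox6c was 143, 145, 176 and 260 CPM in the p110α line and 257, 274 and 294 in the p110β line (0.59 ± 0.17, adjusted p = 0.0155), Cox5b 66.8, 85.1, 64.2 and 71.5 and 104, 92.3 and 110.2 (0.49 ± 0.15, adjusted p = 0.0214), and Uqcrq 42.9, 54.1, 43.7 and 88.8 and 86.3, 83.04 and 104 (0.65 ± 0.21, adjusted p = 0.0268). Mouse 4 lay inside the p110β range for Cox6c and Uqcrq. Atp5g3, at 1003, 1150 and 1032 CPM in the p110β controls (0.45 ± 0.15, adjusted p = 0.0297), and Atp5d, at 180.3, 169.5 and 231 (0.42 ± 0.14, adjusted p = 0.0321), were also higher. Atp5a1, at 1791, 1788 and 1906 (-0.34 ± 0.10, adjusted p = 0.0126), and Cox5a, at 239, 231 and 256 (-0.34 ± 0.10, adjusted p = 0.0189), were lower in the p110β line, and these 4 genes did not overlap between the lines. With the GC and length correction 1 was higher (Cox6c) and 5 lower, and Atp5g2 was 0.28 (adjusted p = 0.0754) and Uqcr11 0.21 (adjusted p = 0.23). The 5 lower were Atp5a1, Cox5a, Atp5e, Uqcr10 and Uqcrfs1. The 9 calls became 14 without mouse 4 and 4 without mouse 1, 3, 16 or 18. Over all genes 1421 to 2735 were called with 1 library left out, against 2588 with every library.

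Promoters of these genes hold motifs of factors known to regulate respiratory genes. RefSeq promoter windows on GRCm38.p6, from 250 bases before to 50 after the start, were matched for 25 of the 32 genes and for 27025 genes in all, and motifs were searched on both strands. The nuclear respiratory factor 1 (NRF1) motif GCGCATGCG was in 6 of 25 (24%), against 1.95% of all genes, and the looser GCGCANGCG, which contains it, in 11 (44%) against 7.03%. The ETS motif of GABPA, CCGGAAG, was in 8 (32%) against 9.93%. AAGATGGC of YY1 was in 2 (8%) against 3.19%, TNAAGGTCA of the estrogen-related receptors in 1 (4%) against 1.43% and GGGCGG of SP1 in 7 (28%) against 38.2%. A match is a description of the letters and not of binding. The NRF1 matches are shown with up to 10 bases on each side, in the direction of the gene, with the match in capitals (10 capitals where both strands match), since 5 of these 6 genes were tested above.
Atp5g2 (chr15:102671070-102671099, minus): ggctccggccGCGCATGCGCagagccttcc
Atp5k (chr5:108434430-108434459, minus): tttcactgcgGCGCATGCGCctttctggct
Atp5l (chr9:44920965-44920992, minus): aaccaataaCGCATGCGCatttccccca
Cycs (chr6:50566612-50566640, minus): catgctagctCGCATGCGCgcgcacaaac
Uqcr11 (chr10:80406808-80406836, minus): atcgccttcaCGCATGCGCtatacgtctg
Uqcrc1 (chr9:108936668-108936697, plus): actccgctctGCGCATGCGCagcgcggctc
Over the 4 genotypes fasting changed Uqcr11 by -0.50 ± 0.08, Cycs by -0.52 ± 0.08, Atp5k by -0.50 ± 0.10, Atp5g2 by -0.17 ± 0.07 and Atp5l by 0.02 ± 0.11 in log2, while Uqcrc1 was not tested.

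Other genes of the same machinery were counted from lists chosen with the members. In the fasting comparison over 4 genotypes 3571 of all 12760 genes (28%) were called lower and 3477 higher. Of 6 complex III assembly factors 5 fell, with a median of -0.58, among them Uqcc2 (-0.84 ± 0.09, adjusted p = 1.08e-08). Of 21 complex IV assembly factors 14 fell and 2 rose (median -0.33), of 10 other nuclear complex IV subunits 6 fell (median -0.38) and of 7 ATP synthase assembly factors and other subunits 6 fell (median -0.32), among them the F1 assembly factor Atpaf1 (-0.70 ± 0.07, adjusted p = 1.29e-09). Complex II, which feeds electrons to ubiquinone, had 3 lower and 1 higher of 4. Of 6 subunits of complexes III, IV and V encoded in the mitochondrial genome, 1 rose and 1 fell (median -0.11). Among 12 regulators of mitochondrial biogenesis 6 rose and 3 fell, with Pprc1 higher (0.60 ± 0.06, adjusted p = 5.60e-09) and Esrra, the estrogen-related receptor alpha, lower (-0.61 ± 0.07, adjusted p = 3.81e-08). In fasted M-p110αKO against controls 375 of all 12433 genes were called higher and 436 lower. There 2 of 10 other complex IV subunits rose, among them the muscle form Cox6a2 (0.92 ± 0.17, adjusted p = 0.0059). Of the other lists Sdha (0.45 ± 0.10, adjusted p = 0.013), Esrra (0.57 ± 0.12, adjusted p = 0.010) and Cox19 (0.71 ± 0.16, adjusted p = 0.015) rose, each the only one higher in its list, and 1 ATP synthase gene fell. In fed M-p110αKO none of these lists had a called gene, against 0.611% of all genes called.

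Level, length and GC content of the genes were set beside their changes as a description. Across the 31 genes, which are not independent replicates and share their libraries, the fasting change over 4 genotypes had a Pearson r of 0.46 (Spearman rho 0.53) with log2 mean CPM, 0.40 (0.34) with log2 exon length and -0.22 (-0.19) with GC content. For the change in fasted M-p110αKO against controls the correlation with GC content was 0.46 (rho 0.41), and for fasting in p110α controls it was -0.46 (rho -0.39).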

How the data were processed

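RNA of TA muscle was sequenced from 29 mice in 8 groups, taken from the submitters' labels. As deposited, the values are raw read counts per Ensembl gene: the authors aligned reads with STAR to GRCm38 and counted them with featureCounts of Subread, with versions and strand setting not given in the sources used here. In all, 48023 genes were listed, 0 columns went unused, and 713 IDs without a GENCODE M21 symbol held 0.0292% of counts. Genes and lists were chosen with earlier results of these data known.

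Counts were fitted with edgeR 4.0.16 (R 4.3.3) by the quasi-likelihood test with TMM factors, after filterByExpr (minimum count 10, minimum total 15). The model had 1 term per group, fitted within each line (12433 and 12249 genes) or over both lines (12760 genes), with Benjamini-Hochberg adjustment over the genes tested and a threshold of 0.05. The scripts were tested on simulated data. Named with values in every library were the called genes of a comparison, at most 10, lowest adjusted p first, and where fewer than 2 were called the 2 with the lowest p. Of other lists up to 4 called genes were named per comparison. Tried in turn were scaling by DESeq2 size factors or upper quartiles, fits without the filter, DESeq2 1.42.0 and limma-voom (limma 3.58.1). So were a spline correction (5 degrees of freedom) for GC content of the longest transcript and summed exon length, the compared groups alone, and leaving out each library. GC content and exon length were known for 98.3% of genes. All 39 pairs of libraries within a group differed beyond sampling noise (chi-square per degree of freedom 3.92-31.0).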

Additional observations from a re-analysis of the deposited data

Results flagged for a closer look

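In the fasted state the effect of deletion on Atp5g2 differed between the lines, by 0.75 on the log2 scale (p110α minus p110β), in a test of the difference itself (edgeR). The call was lost with the GC and length correction (0.37, adjusted p = 0.23), without mice 23 and 24 (0.48, adjusted p = 0.42) and without any 1 of mice 13, 14, 23, 24 and 26. Of 190 sets of 4 values from 1 group, 14 held a mouse far from the other 3, and chance alone would mark about 1 in 20.

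Control mouse 4 (fed, p110α line) was the farthest in 3 sets. Its Atp5g1 was 101.8 CPM against 44.9-52.9 in the other mice, its Atp5g1 share of the c subunit genes was 5.16% against 2.39-2.76%, and its Cyc1 was 323.6 CPM against 726-782. In the same group mouse 3 had the highest Uqcrc2, at 662.1 CPM against 544-557. Among fed M-p110αKO, mouse 5 was lowest for Atp5d (132.9 CPM against 161-166) and for Cox5a (313.6 CPM against 369-376).

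Among fed M-p110βKO, mouse 20 was lowest in 3 genes: Atp5g3 at 764.9 CPM against 989-1029, Cox5b at 75.42 CPM against 108.5-113 and Cox6c at 197.6 CPM against 249-253. Mouse 21 had the highest Atp5j, at 299.6 CPM against 227-236, and mouse 22 the highest Atp5c1, at 1108 CPM against 883.5-912. Among fasted M-p110βKO, mouse 28 was highest for Atp5b (4315 CPM against 3444-3516), for Cox5b (92.65 CPM against 69.6-70.8) and for the summed ATP synthase genes (10910 CPM against 8798-9140).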

How the results depend on the processing

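The lowest totals over all libraries were 1206 counts for Atpif1, which limits its precision, and 7 for Uqcrc1, whose cause was not tested. No paired analysis was possible because the numbers in the labels run from 1 to 29 and none is shared between groups. Of the counts of called genes, 108 of 122 stayed within 1.5 times under the alternatives other than leaving out 1 library, and no scaling moved the median of all genes by more than 0.1. Without the filter, called genes were 3 instead of 0 in fed and 5 instead of 2 in averaged M-p110αKO, 21 instead of 12 for fasting in M-p110αKO, 4 instead of 0 for the p110α interaction, 2 instead of 0 for the fed and 3 instead of 1 for the fasted difference in deletion effect between lines. DESeq2 called 4 for averaged M-p110αKO and 3 for the p110α interaction, and limma-voom 1 for the former. Shares of all genes called without the filter, in DESeq2 or in limma-voom are not given here or above. A change in how many genes a fit calls can therefore not be told apart from a change of these genes. With the GC and length correction 2 instead of 4 were called in fasted M-p110αKO, 4 instead of 8 for fasting in p110β controls, where the median became -0.10, and 7 instead of 11 for fasting in M-p110βKO. The same correction turned Atp5g2 under fasting over 4 genotypes from -0.17 to 0.14, and the cause of these changes was not tested. Without control mice 23 and 24, an alternative chosen after seeing the data, 0 were called for fasting in p110β controls and 0 for the fasted difference between lines. Plain shares of counts gave 5.99% for Atp5g1, 3.656% for Atp5g2 and 90.35% for Atp5g3.

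Leaving out 1 library at a time gave 0 to 5 calls in fasted M-p110αKO (5 without mouse 4) and 0 to 6 in averaged M-p110αKO. For fasting it gave 6 to 15 in p110α controls and 8 to 14 in M-p110αKO (14 without mouse 4). For fasting in the p110β line it gave 1 to 11 in controls and 6 to 14 in M-p110βKO. It gave 0 to 1 for the p110α interaction (1 without mouse 7 or 15), 0 to 3 for the fasted difference between lines, 4 to 14 for fed controls of both lines and 23 to 26 for fasting over 4 genotypes. Over all genes it gave 1667 to 2927 for fasting in M-p110αKO, 2 to 74 for the p110α interaction and 6776 to 7080 for fasting over 4 genotypes.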
